A study of Mus musculus with 8 samples.

Results

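The transfer RNA (tRNA) genes of the mouse nuclear genome were examined for accessible chromatin in unstimulated dendritic cells. The members were all RefSeq genes of biotype tRNA on the autosomes and X in mm10, 403 of the 430 annotated, with 22 mitochondrial genes and 5 on unplaced scaffolds left out. Each gene was taken with 1 kb on both sides. It was scored by whether a shared region fell in that window. A shared region is the joined stretch of a replicate 1 peak and a replicate 2 peak that overlapped by at least 1 bp. There were 44328 shared regions on these chromosomes, from 50950 peaks in replicate 1 and 58319 in replicate 2. The rule that lists the genes uses only the annotation, although the tRNA genes were taken up with earlier results of these data known.

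The series addresses how the transcription factors IRF3, IRF5 and IRF9 select enhancers in mouse dendritic cells. Its only group used here is ATAC-seq, which marks accessible DNA by transposase insertion, on unstimulated CD8-positive dendritic cells in 2 replicates. The other 6 of its 8 samples are immunoprecipitations of these factors after 90 min of stimulation and were not analysed here. The labels call the source spleen in one field and a CD8-positive dendritic cell line in another. They name no genotype, strain, age or transgene, and do not say that the replicates were separate cultures, so the spread between them may be technical. With a single group there was no comparison of conditions, and no test over samples was possible.

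tRNA genes are transcribed by RNA polymerase III. Their promoter lies inside the gene, in a pair of short elements called the A box and the B box, which are bound by the factor TFIIIC. TFIIIC places TFIIIB just upstream of the gene, and TFIIIB brings in the polymerase. Many genes encode the same tRNA, and in mammals they lie both scattered and in clusters. In a gene name such as n-TRtcg5, the capital after the T is the amino acid (here arginine) and the lower-case letters are the anticodon.

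The sequences below show what such an element looks like in genes that the peaks did and did not mark. The RefSeq table used gives promoter windows of the neighbouring genes, and 4 tRNA genes lay whole inside one. They are printed 5′ to 3′, with matches to the A box motif TGGCNNAGT and the B box motif GTTCGANNC in capitals.
n-TTagt9: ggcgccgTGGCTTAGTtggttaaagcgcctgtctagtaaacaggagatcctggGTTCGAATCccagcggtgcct
n-TRtcg5: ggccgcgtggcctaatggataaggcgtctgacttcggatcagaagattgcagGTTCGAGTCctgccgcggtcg
n-TVcac9: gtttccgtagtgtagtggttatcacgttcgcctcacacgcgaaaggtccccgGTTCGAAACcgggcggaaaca
n-TAagc16: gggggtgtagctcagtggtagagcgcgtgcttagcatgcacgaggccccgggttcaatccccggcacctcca

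n-TTagt9 (chr7:35234770-35234843, minus strand by its motifs) encodes a threonine tRNA, with the A box match at base 8, the anticodon at base 35 and the B box match at base 54. A shared region at chr7:35234753-35235044 covered it, with a fold enrichment over local background of 9.406 in replicate 1 and 11.44 in replicate 2. n-TRtcg5 (chr7:79466419-79466491, plus strand by its motif) lies inside Polg, the gene of the mitochondrial DNA polymerase. The region on it, chr7:79466103-79466511, had fold enrichments of 7.68 and 8.78. That region also overlapped the promoter window of Polg that holds the tRNA gene, chr7:79466224-79466523. Whether the region belongs to the tRNA gene or to Polg cannot be told apart. n-TVcac9 (chr13:23446142-23446214, minus strand by its motif), a valine gene, was overlapped at its edge by the region chr13:23446203-23446297, with 5.607 and 5.571. The best-scoring region in its window lay beside the gene and had 5.626 and 5.883. The regions on n-TTagt9 and n-TVcac9 also overlapped the promoter windows that hold these genes, those of Gm38989 and Gm46404. n-TAagc16 (chr13:21222586-21222657), an alanine gene, had its nearest shared region 21811 bp away and no match to either motif as spelled. The 3 whole genes with a region held the B box letters as spelled and the 1 without did not. Its bases gttcaatcc differ from that spelling at 1 letter, so the lack of a match does not show that it lacks a B box. These few genes allow no rule that ties the letters to a region. Among genes held in part, n-THgtg7, a histidine gene with 62 of its 72 bases in the table, held the B box letters. It had no shared region within 1 kb.

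Counting genes held in part, 9 promoter windows in the table held at least 20 tRNA bases. The B box letters occurred in 6 of these 9, against 277 of all 32817 promoter windows of the table (0.844%). The A box letters occurred in 1 of the 9, against 1368 of all windows (4.17%). Both strands were searched, and in n-TTagt9, which holds both motifs, they do not overlap. A window with no match says only that these letters were not in it.

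A tRNA gene and the promoter of a polymerase III subunit gene met under a single shared region on chromosome 7. n-TLaag4, a leucine tRNA gene at chr7:120917517-120917598, ends 180 bp before the start of Polr3e, which encodes a subunit of RNA polymerase III itself. The window of 300 bases around that start (mm10 chr7:120917528-120917827, plus strand) is printed because 1 region lay on both genes, with the 71 tRNA bases it holds in capitals.
Polr3e: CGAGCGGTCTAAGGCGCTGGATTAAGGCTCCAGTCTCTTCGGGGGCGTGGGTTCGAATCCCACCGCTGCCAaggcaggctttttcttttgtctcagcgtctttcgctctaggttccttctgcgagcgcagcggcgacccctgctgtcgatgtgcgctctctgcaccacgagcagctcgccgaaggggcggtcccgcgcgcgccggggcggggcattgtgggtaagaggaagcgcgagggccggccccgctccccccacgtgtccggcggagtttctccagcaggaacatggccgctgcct

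The region at chr7:120917553-120917826 had fold enrichments of 6.772 in replicate 1 and 8.473 in replicate 2. It began inside the tRNA gene and ended past the Polr3e start, so which of the genes it belongs to cannot be told apart. The B box letters of n-TLaag4 start at base 51 of the printed bases.

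Of the 403 tRNA genes, 166 (41.2%, exact 95% interval 36.3 to 46.2) had a shared region within 1 kb. On the gene itself a shared region lay over 111 (27.5%, 23.2 to 32.2). Among 3357 other short RNA genes (snoRNA, snRNA and microRNA genes of at most 150 bp), 267 had a region within 1 kb (7.95%) and 77 had one on the gene (2.29%). Of windows of the same length laid every 1 kb along the chromosomes, 3.40% held a shared region. Of the ends of coding genes 26.2% had one within 1 kb, with starts and far ends pooled because the gene table gives no strand. Counted by gene, 48.1% of coding genes had one within 1 kb of either end. The intervals cover counting error only, and neighbouring tRNA genes share regions, so they are narrower than independent loci would give. In a bulk sample, a site open in few cells and a site weakly open in many cannot be told apart.

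Both replicates gave nearly the same picture of the tRNA genes. Replicate 1 had a peak in the window of 171 genes (42.4%) and replicate 2 in that of 183 (45.4%). Peaks of both fell in 165 windows, a peak of replicate 1 alone in 6, of replicate 2 alone in 18, and of neither in 214. One of those 18 genes, n-TDgtc7, still had a shared region, since the joined stretch reached its window and the replicate 1 peak in it did not. Where 1 replicate alone had a peak, it was thus more often replicate 2, which was the deeper library. The genome-wide background that the peak caller used was 1.89 times higher in replicate 2, the weakest summit rested on 7 reads in replicate 1 and 9 in replicate 2. The median summit rested on 17 and 22 reads. A gene without a peak is one where none was called at this depth, and it is not shown to lack accessible DNA. The part of depth in the missing peaks was not tested for any count here. Nor was that of how reads from near-identical tRNA genes were placed.

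The rule's limit of 1 kb split few genes closely. Just inside it lay the nearest regions of n-TIaat5 at 894 bp, n-TPagg3 at 986 bp and n-TDgtc7 at 998 bp. Just outside lay those of n-TDgtc3 at 1001 bp, n-TDgtc6 at 1006 bp and n-TMcat14 at 1044 bp. In all, 18 genes had their nearest region farther than 1000 and up to 2000 bp away.

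The marked tRNA genes were mostly near coding genes, and 114 of the 166 had a coding gene end no more than 10 kb away. Within 2 kb of the nearest end of a coding gene, 52 of 67 tRNA genes had a shared region in their window (77.6%, 65.8 to 86.9). Between 2 and 10 kb the count was 62 of 118 (52.5%, 43.1 to 61.8), and between 10 and 50 kb it was 51 of 146 (34.9%, 27.2 to 43.3). Beyond 50 kb it was 1 of 72 (1.39%, 0.0352 to 7.5). The share thus fell in each of these steps away from coding genes. The intervals of neighbouring steps overlapped only between 2 to 10 kb and 10 to 50 kb. The fall depends on where the steps are cut. Up to 10 kb the share was 114 of 185 (61.6%), and up to 20 kb it was still 156 of 265 (58.9%). Beyond 20 kb it was 10 of 138 (7.25%). Of the 52 marked genes beyond 10 kb, 10 lay beyond 20 kb, so the 34.9% does not stand for all of 10 to 50 kb.

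Other short RNA genes had lower shares than tRNA genes in the first 3 of these steps. Within 2 kb of a coding gene end 150 of 458 such genes had a shared region (32.8%), between 2 and 10 kb 60 of 703 (8.53%), and between 10 and 50 kb 44 of 930 (4.73%). Beyond 50 kb the tRNA genes' 1.39% stood beside 13 of 1266 for other short RNA genes (1.03%) and 1.16% of the tiled windows. So the tRNA genes stood apart from the other short RNA genes within 50 kb of a coding gene end, and their interval took in the others' share beyond it. The difference has no test, because genes are not replicates of the samples.

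The same order held for regions on the gene itself. They lay over 35 of 67 tRNA genes within 2 kb of a coding gene end (52.2%), 41 of 118 at 2 to 10 kb (34.7%) and 35 of 146 at 10 to 50 kb (24.0%). Over the 72 genes beyond 50 kb there was none, a count that allows a share of up to 4.99%. Being inside a coding gene made no such split, since 14 of 34 tRNA genes inside one had a shared region (41.2%), against 152 of 369 outside (41.2%).

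**Figure D1:**
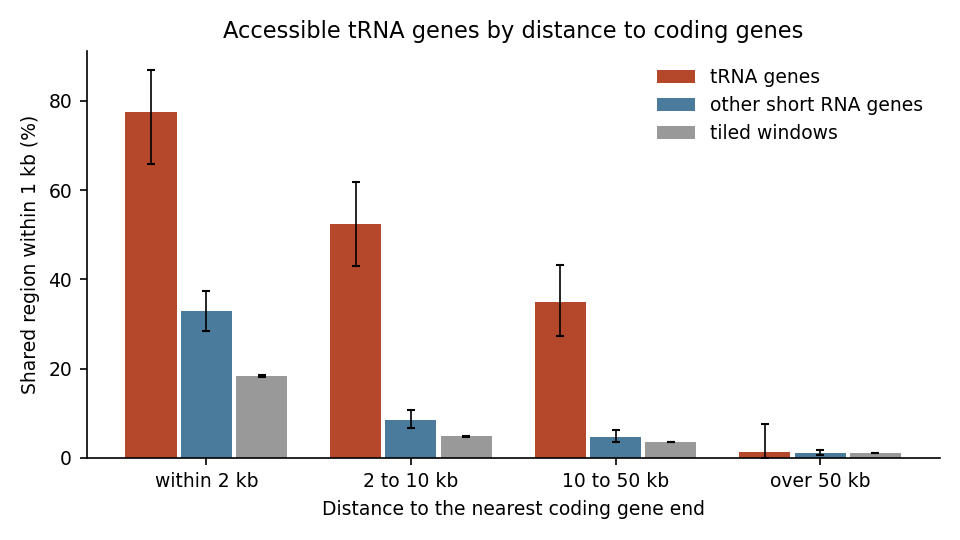
Share of genes or windows with a shared region within 1 kb (y axis, %) in 4 ranges of distance to the nearest coding gene end, for tRNA genes, other short RNA genes and tiled windows, with exact 95% intervals as error bars. tRNA genes run from 77.6% within 2 kb to 1.39% beyond 50 kb, above the other short RNA genes in the first 3 ranges.

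The one gene beyond 50 kb with a region was n-TGgcc9, a glycine gene at chr3:84229011-84229081 inside Trim2, which encodes a ubiquitin ligase. The gene lay 68572 bp from the nearest coding gene end. Its region, chr3:84228652-84228856, lay 155 bp from the gene, with fold enrichments of 9.091 and 9.286 on 22 and 30 reads. It was also the only one of the 21 lone tRNA genes at this distance to have a region.

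Coverage by shared regions was highest at the tRNA genes and lower away from them. Of the tRNA genes' edge bases 25.6% were covered by a shared region, against 12.2% of the bases 100 bp out, 8.44% at 500 bp, 2.85% at 1000 bp and 0.744% at 2000 bp. For other short RNA genes the coverage was 1.73% at the edge and 0.998% at 500 bp and at 2000 bp. Over all genes with a shared region, the nearest summit lay within 100 bp of the middle of the gene for 58.8% in replicate 1 and 62.7% in replicate 2. Among the 111 genes with a region on them, it lay this close for 97 in replicate 1 (87.4%) and 104 in replicate 2 (93.7%). The median distance was 47.0 bp in replicate 1 and 35.5 bp in replicate 2, for genes of a median length of 72 bp, although a region on the gene limits how far its summit can lie.

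The position was much the same away from coding genes. For the 76 overlapped genes more than 2 kb from a coding gene end, the median distance was 48.5 and 37.75 bp in replicates 1 and 2, and 90.8% and 93.4% had a summit within 100 bp. Among tRNA genes more than 2 kb from coding gene ends, coverage was 8.93% at 100 bp and 2.08% at 1000 bp. The flanks of lone and clustered genes differed in shape. Lone genes had 32.3% of edge bases covered, 15.5% at 250 bp, 5.91% at 500 bp and 2.27% at 900 bp. Clustered genes had 23.0% at the edge, 8.36% at 250 bp, 9.39% at 500 bp and 4.61% at 900 bp, where bases can belong to regions of the next tRNA gene.

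**Figure D2:**
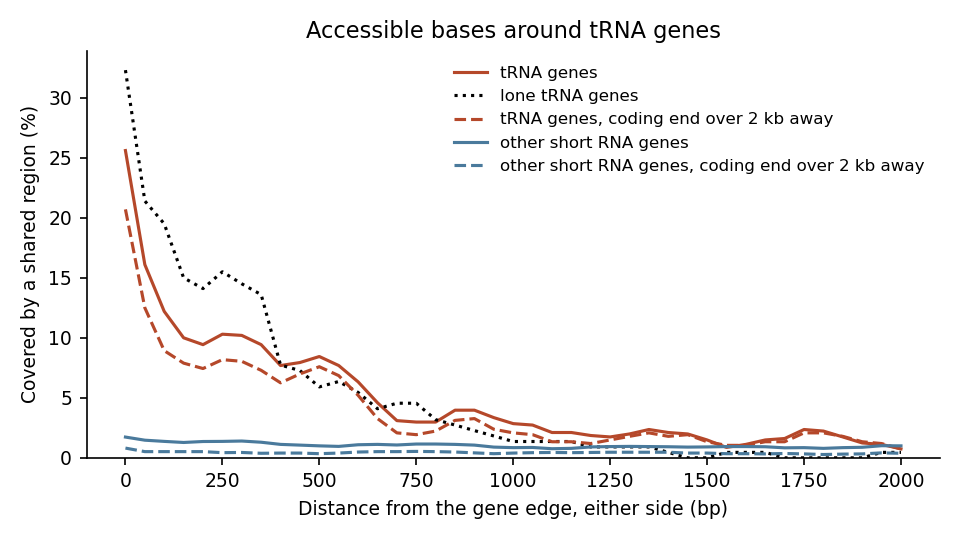
Percent of bases (y axis) covered by a shared region at each distance from the gene edge, with both sides of each gene counted (x axis, bp). Curves are for all 403 tRNA genes, the 110 lone ones and those with no coding gene end within 2 kb. Other short RNA genes are drawn as a whole and for those with no coding gene end within 2 kb. The tRNA curves are highest at the gene edge, 25.6% for all of them, and the other short RNA genes stay below 2% at every distance.

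In height the regions at tRNA genes were ordinary or low. The windows held 184 shared regions, 0.415% of all, of which 106 lay on a tRNA gene and 78 beside one. Replicate 1 gave them a median fold enrichment of 5.86, against 7.22 over all shared regions, and replicate 2 one of 5.83, against 7.59. Their summits held as many reads or more, with medians of 20 and 27 against 17 and 25 over all shared regions. The local background the caller set against them was higher, at 2.5 and 3.74 reads, against 1.39 and 2.23 over all shared regions. The lower fold thus stood beside a higher local background and not beside fewer reads; what sets that background was not tested.

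Few of the regions ranked high in both lists. At a score percentile of 90 or above in both there were 3 of the 184, against 7.57% of all shared regions. At a percentile of 10 or below in either list there were 36 of the 184, against 11.1% of all. The regions were slightly wider than the rest, at a median of 216.5 bp against 198 bp. More than 1 summit was called in 41.8% of them and in 50% of those on a tRNA gene, against 24.9% of all shared regions. Of the 184, 55 had a coding gene end within 1 kb and 129 did not. Regions on a tRNA gene had median folds of 5.51 and 5.6 where no coding gene end lay within 1 kb (78 regions) and 5.99 and 5.96 where one did (28 regions). By score they were further apart, with median percentiles of 39.3 and 47.8 where no coding gene end lay within 1 kb and 57.5 and 63.0 where one did. All shared regions had the same order, with 52.7 and 59.3 away from coding gene ends and 62.0 and 66.2 within 1 kb of one. For regions on a tRNA gene, the median reads at the summits were 18.5 and 27 away from coding gene ends and 22.5 and 33 beside them. Across the 184 regions, fold enrichment in the 2 replicates had a Spearman rho of 0.74, a description over regions of the same 2 libraries.

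**Figure D3:**
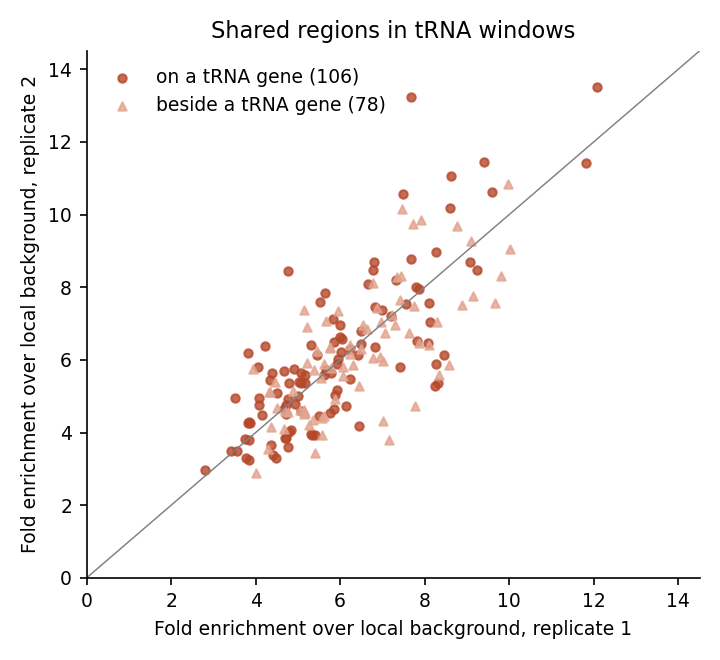
Fold enrichment over local background in replicate 1 (x axis) and replicate 2 (y axis) for the 184 shared regions in tRNA windows, 106 on a tRNA gene and 78 beside one, with the line of equal values. The points lie around the line, with n-TNgtt14's region at 12.07 and 13.51.

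The best-scoring regions lay at genes for different amino acids and mostly close to coding gene ends. n-TNgtt14, an asparagine gene at chr5:149229001-149229074, had fold enrichments of 12.07 and 13.51 on 32 and 47 reads, in a region at chr5:149229014-149229467. The gene was 13567 bp from the nearest coding gene end, and the other 9 of the 10 best-scoring genes were within 10 kb of one. n-TDgtc8, an aspartate gene, had 11.81 and 11.42 at chr10:93452945-93453547, a region within 1 kb of Lta4h, the leukotriene A4 hydrolase gene. n-TRacg6, an arginine gene, had 9.597 and 10.63 at chr14:54517278-54517793, beside Prmt5, which encodes an arginine methyltransferase. n-TAagc9, for alanine, had 9.066 and 8.705 at chr19:3575687-3576368 beside Ppp6r3, a phosphatase regulatory subunit gene. n-TMcat11, for methionine, had 8.599 and 10.17 at chr3:90475824-90476216 beside Ilf2, which encodes an RNA-binding protein. With a reciprocal overlap of 50% between the replicates' peaks, n-TDgtc8 and n-TAagc9 had no shared region. At the 4 genes from n-TDgtc8 on, the region touched the tRNA gene and lay within 1 kb of the coding gene end, so the tRNA gene and the coding gene cannot be told apart as its source.

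The other 5 of the 10 had weaker ties to a single tRNA gene. n-TEctc12, for glutamate, had its region 511 bp away beside Acp6, with 9.968 and 10.85. n-TAagc8, for alanine, had its region 207 bp away, with 8.768 and 9.686. A single region at chr14:51089340-51089803 served 3 genes. It lay on the tyrosine gene n-TYgta10, 618 bp from the threonine gene n-TTtgt1 and 844 bp from the proline gene n-TPtgg5, with 9.227 and 8.471.

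Clustered tRNA genes had a region somewhat less often than lone ones, by an amount that depended on the setting. Joined where the gap was at most 10 kb, the 403 genes formed 174 loci, of which 110 were lone genes and 64 were clusters with 293 genes. A shared region lay within 1 kb of 115 clustered genes (39.2%, 33.6 to 45.1) and of 51 lone genes (46.4%, 36.8 to 56.1). On the gene itself a region lay over 24.9% of clustered and 34.5% of lone genes. With the better-scoring 50% of peaks the gap widened, to 12.6% of clustered and 30.9% of lone genes. Without the cysteine genes the order turned, with 47.3% of clustered and 45.4% of lone genes. The 6 clusters of 10 or more genes had a region at 16 of 86 genes (18.6%). The counts were 48 of 104 in clusters of 2 to 4 (46.2%) and 51 of 103 in clusters of 5 to 9 (49.5%). The large clusters were not alike. Those of 22 and 10 genes with the cysteine genes of chromosome 6 had none marked. Clusters of 15 and 10 genes for other amino acids on chromosome 13 had none marked either. By contrast, 1 of 15 genes had 7 and 1 of 14 genes had 9. Size was not tested apart from amino acid or distance to coding genes.

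Whole clusters tended to be alike. Every gene had a shared region in 19 clusters and no gene in 29, which held 130 genes, while 16 were mixed. Part of this follows from regions being shared, since 73 of the 184 regions fell in the windows of at least 2 tRNA genes and at most 4. In the most compact case, 4 genes at chr3:19627959-19629067, for arginine, tyrosine, tyrosine and alanine, all lay within 1 kb of a single region of 843 bp (chr3:19628240-19629082) with fold enrichments of 7.822 and 6.531. In others each gene had its own region. On chromosome 2 the histidine genes n-THgtg4, n-THgtg3 and n-THgtg5 (chr2:122375494-122378039) were each overlapped by one of 3 regions. The best region in the window of n-THgtg4 had 6.822 and 6.344, and that of n-THgtg3 5.757 and 4.543. A glycine and a methionine gene, n-TGgcc7 and n-TMcat7, at chr13:21710580-21711065 were both overlapped too.

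The 3 largest clusters differed. The largest, chr6:48244316-48317586, held 22 genes and no peak in either replicate. Of these, 21 are named for cysteine, and n-Tcgca44, whose amino acid letter RefSeq writes in lower case, was counted as undetermined. Its closest gene to a coding gene end was 77057 bp from Krba1. A cluster of 15 genes for 7 amino acids at chr13:21907111-21940995 had no peak either, and it came within 4058 bp of Zfp184, a zinc finger gene. The third, also of 15 genes, begins inside Fcgr3, an Fc receptor gene that holds its first 3 tRNA genes, at chr1:171064164-171081946, and 7 of its genes had a shared region within 1 kb. A further cluster on chromosome 13, 14 genes at chr13:23425646-23453514, had 11 shared regions that marked 9 of its genes, 5 of them on the gene. A cluster without peaks and a marked one of similar size thus lay on the same chromosome.

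The cluster at Fcgr3 is a tandem array that repeats glutamate, glycine, aspartate, leucine and glycine genes 3 times. The first genes of neighbouring copies start 7628 and 7614 bp apart. In each copy the glutamate gene carried a shared region, and the leucine gene and the last glycine gene carried none. For n-TEctc5, n-TEctc8 and n-TEctc7, in the order of the copies, replicate 1 gave fold enrichments of 3.823, 4.795 and 4.355 and replicate 2 gave 4.271, 4.015 and 3.652. The reads at their summits were 14, 17 and 16 in replicate 1 and 21, 22 and 20 in replicate 2, so the copies were alike in height in both. In the scoring of this cluster n-TEctc8 ranked highest and n-TGtcc1, which shares the region of n-TEctc5, lowest. A peak in 1 replicate alone lay on n-TDgtc3 in replicate 1 (fold enrichment 4.365) and on n-TGtcc5 in replicate 2 (3.347). The sources used here do not give how reads from near-identical copies were placed, and its part in these heights, or in the lack of peaks at the chromosome 6 genes, was not tested.

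**Figure D4:**
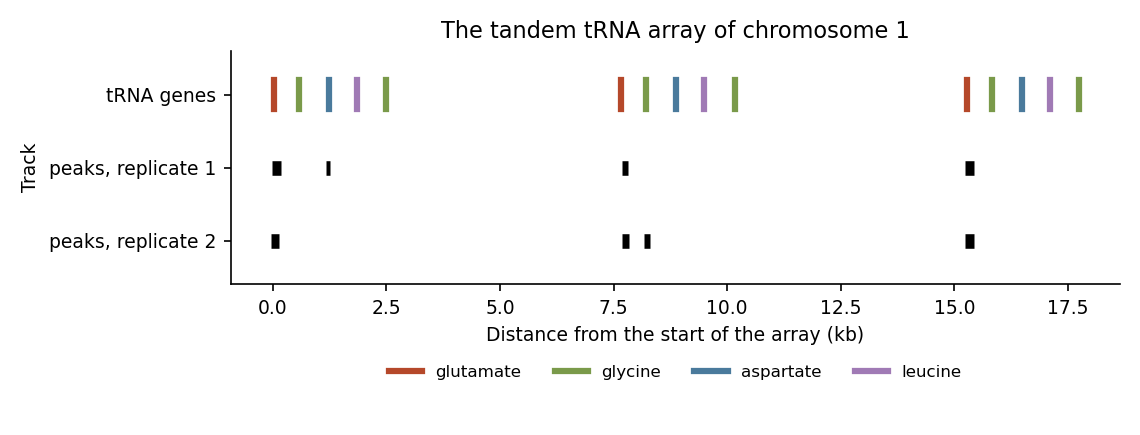
The 15 tRNA genes of the chromosome 1 array, coloured by amino acid, above the peaks of replicate 1 and replicate 2 (black bars), against distance from the array's start (x axis, kb). Both replicates have a peak on the glutamate gene that opens each of the 3 copies; 1 further peak per replicate lies on an aspartate gene (replicate 1) and a glycine gene (replicate 2).

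Each of the 20 amino acids had at least 1 tRNA gene with a shared region on the gene. By anticodon, 43 of 48 had at least 1 gene with a region within 1 kb. The other 5 were G-acc, H-atg, I-tat and S-gga, with 1 gene each, and K-ttt, with 2 genes. All genes of G-tcc (7 of 7), L-aag (5 of 5) and V-tac (3 of 3) had one within 1 kb. On the gene itself a region lay over 3, 3 and 2 of them, and the window can take in a region on a neighbouring tRNA gene. So most anticodons were served by at least 1 marked gene. Of the 44 anticodons with 2 or more genes, 1 had none. With 41.2% of all tRNA genes marked, an anticodon or amino acid with many genes is likely to have at least 1 marked. These counts thus follow largely from gene number and set no anticodon apart. The share of genes marked differed among amino acids.

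Arginine had 16 of 24 genes marked (66.7%), leucine 16 of 25 (64.0%), proline 10 of 16 (62.5%) and glycine 17 of 28 (60.7%). At the other end, lysine had 7 of 26 (26.9%), alanine 8 of 33 (24.2%) and cysteine 4 of 56 (7.14%, 1.98 to 17.3). The interval of cysteine lay below those of arginine (44.7 to 84.4), leucine, proline and glycine. Between alanine and arginine the intervals were also apart, and for most neighbours in this order they overlapped widely. The alanine genes of X lay together at chrX:136357602-136590436, and none of them was marked. The alanine share without that stretch was not computed, so its interval does not stand for independent loci. The kind of mark differed as well. Of arginine's 16 genes 14 had the region on the gene, whereas threonine had 2 of 8 and glycine 7 of 17.

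Distance to coding genes differed between the ends of this order, though not step by step. The median distance to a coding gene end was 77086 bp for cysteine genes and 22901 bp for alanine genes, against 7802 bp for arginine and 7762 bp for leucine. Proline and lysine, far apart in share, had similar medians of 11674 and 11496 bp, and phenylalanine, with 57.1% of its genes marked, had 14431 bp. Of the cysteine genes, 50 of 56 lay more than 10 kb from a coding gene end, and 1 of these 50 had a region. Among all other tRNA genes beyond 10 kb 51 of 168 had one (30.4%), but fewer of these lay very far out. Beyond 50 kb the counts were 0 of 43 cysteine genes and 1 of 29 other tRNA genes (3.45%), with overlapping intervals (0 to 8.22% and 0.0873 to 17.8%). The part of distance in the difference between amino acids was not tested further.

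**Figure D5:**
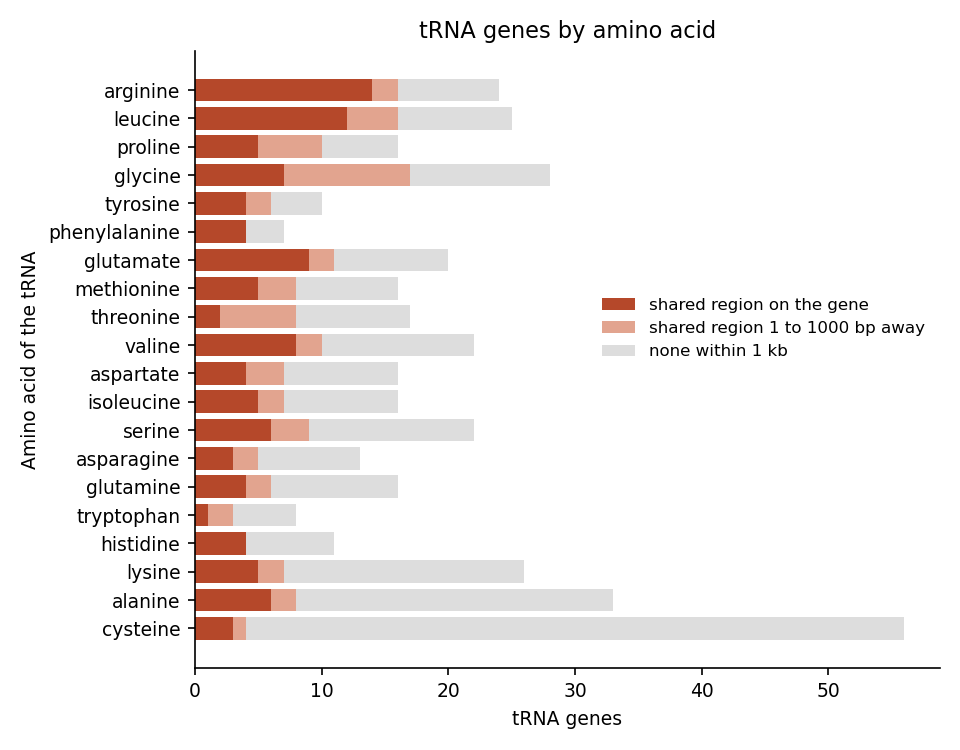
Number of tRNA genes (x axis) per amino acid (y axis, ordered by the share with a region), split into those with a shared region on the gene, those with one 1 to 1000 bp away and those with none within 1 kb. Arginine has 16 of 24 genes with a region and cysteine 4 of 56; n-Tcgca44, counted as undetermined, is left out.

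The 4 marked cysteine genes were not in the large arrays. n-TCgca54 and n-TCgca55 form a pair at chr11:97988246-97988994, 581 and 1258 bp from Arl5c, both overlapped by a region. n-TCgca57 (chr6:47978997-47979068) is a lone gene on the chromosome of the arrays, overlapped by a region with 6.799 and 8.687 on 15 and 28 reads. The fourth, n-TCgca52 on chromosome 17, had a region 244 bp away with 6.939 and 6.083. Without cysteine, 162 of the 347 other tRNA genes had a region within 1 kb (46.7%, 41.3 to 52.1) and 108 had one on the gene (31.1%).

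Chromosomes differed in the share of marked genes. Chromosome 13 holds the most tRNA genes and had a region at 31 of 105 (29.5%), and chromosome 11 at 32 of 47 (68.1%). Chromosome 6, with the cysteine arrays, had 3 of 53 (5.66%). On X, which has no large cluster, it was 1 of 17 (5.88%), and on chromosome 1, with its 15-gene array, 20 of 37 (54.1%). The other 16 genes of X had no peak in either replicate.

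Clustered histone genes lie near many of the chromosome 13 tRNA genes. Within 10 kb of a histone gene lay 9 tRNA genes, 5 of them with a shared region, and within 50 kb lay 30, with 14. No region counted for a tRNA gene lay within 1 kb of a histone gene.

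A region at an end was also the rule among coding genes of the polymerase III machinery. Of 28 such genes 26 had a shared region within 1 kb of an end (92.9%), against 48.1% of all 21521 coding genes. No set of coding genes of like expression was compared, and a tie between this share and the tRNA counts was not tested. Of the polymerase subunit genes, Polr3k had fold enrichments of 11.25 in replicate 1 and 12.31 in replicate 2. Gtf3c1, the largest subunit gene of TFIIIC, had 10.43 and 11.28. Of the TFIIIB genes, Brf1 had 8.036 and 8.649 and Bdp1 had 6.008 and 5.072. Maf1, which encodes the repressor of the polymerase, had 7.848 and 8.227. Only Polr3a, the gene of the largest subunit, and Snapc3 had none.

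The labelled cell type was checked against marker genes of conventional type 1 dendritic cells. Shared regions lay within 1 kb of an end for 5 of 10, a share close to the 48.1% of all coding genes, so this count does not set the markers apart. They included Flt3 (12.35 and 13.4), Itgax (7.856 and 7.188) and Xcr1 (7.201 and 6.912), while Batf3, Clec9a, Cd8a, Zbtb46 and Itgae had none. Among other cells' markers, 3 of 3 plasmacytoid, 1 of 4 B cell, 1 of 4 T cell, 0 of 3 NK cell and 0 of 3 neutrophil genes had one. Their part in the tRNA counts was not tested.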

How the data were processed

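Chromatin accessibility was measured by ATAC-seq in 2 replicates of 1 group. The authors deposited 1 peak list per replicate. MACS2, HOMER 4.9.1, BWA 0.7.17, Trimmomatic, Picard 2.8.1 and the build mm10 are listed, without their roles, per the submitters' processing notes. Per the file columns as deposited, each peak has a score, a fold enrichment over local background and −log10 p and q values (lowest −log10 q 3.00). Reads at each summit were recovered from the deposited fold enrichment and −log10 p, which came out whole for 100% of summits within a tolerance of 0.002. Gene positions, promoter windows (250 bases before to 50 after a start) and sequences are RefSeq's for GRCm38.p6, the assembly of mm10. The gene table gives no strand, so either end counts as a coding gene end. For the other tRNA genes no sequence is printed.

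Genes were scored by overlap, and shares carry exact Clopper-Pearson 95% intervals, which cover counting error only. A gene's values are those of the best-scoring shared region in its window. No test was made. Named genes were the 10 with the highest lower score percentile, the selenocysteine genes (0 by name), the 3 largest clusters with their highest and lowest gene, the 3 genes on each side of 1 kb, the lone genes over 50 kb from coding ends, and coding genes beside the first 10. Other genes were named after their values were seen. Members and lists were chosen with earlier results of these data known. Peak overlap was tested on simulated data. Alternatives were the overlap, score, q limit, window, joining distance, coding distance, replicate and gene subset. Python 3.11.15, numpy 2.4.6, scipy 1.17.1, pandas 2.3.3 and matplotlib 3.10.9 were used.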

Additional observations from a re-analysis of the deposited data

Results flagged for a closer look

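The mitochondrial tRNA genes lie outside the counts above, and peaks were called there too. Of the 22 mitochondrial tRNA genes, 4 were overlapped by a peak in replicate 1 and 4 in replicate 2. Replicate 1 had 5 mitochondrial peaks over 3321 bp, with fold enrichments of 1.61 to 1.92. Replicate 2 had 4 peaks over 3973 bp, with 1.51 to 1.93.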

How the results depend on the processing

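No paired analysis was possible because a single group of 2 replicates was used and no result comes from a test. The share of tRNA genes with a region within 1 kb (41.2%) was 42.4% to 45.4% with 1 replicate left out, 46.9% with peaks of either replicate, 17.6% with the better-scoring 50% of peaks, 27.5% with no window, 49.4% by locus, 33.9% without genes within 2 kb of a coding end, 46.7% without cysteine and 47.3% without clusters of 10 or more. On the gene (27.5%) it was 27.3% to 34.0% with 1 replicate left out, 36% for either replicate, 9.18% for the better-scoring peaks, 22.8% for a reciprocal overlap of 50%, 22.3% for a −log10 q of at least 5 and 32.5% without those clusters. Clustered genes (39.2%) gave 46.4% for either replicate, 12.6% for the better-scoring peaks, 24.9% with no window, 47.3% without cysteine and 47.8% without clusters of 10 or more. Lone genes (46.4%) gave 30.9% for the better-scoring peaks and 34.5% with no window. Genes away from coding ends (23.9%) gave 8.26% for the better-scoring peaks, 16.1% with no window, 30.4% without cysteine, and 32.7% and 7.25% with the limit at 5 and 20 kb. Genes near them (61.6%) gave 70.3% for either replicate, 28.6% for the better-scoring peaks, 53.5% with 500 bp and 41.1% with no window. The median percentile (49.1) was 42.6 for either replicate and 40.1 to 44.5 with 1 replicate left out. For the better-scoring peaks it was 42.0, but there the peaks were ranked anew among the kept 50%, so this value is on another scale. The median summit distance (62.9 bp) was 71.1 bp for reciprocal overlap, 151.0 bp for the better-scoring peaks, 77.5 bp for the q limit and 50.5 to 64.0 bp with 1 replicate left out. Other short RNA genes (7.95%) gave 4.83% for the better-scoring peaks, 9.56% for either replicate, 5.18% with 500 bp, 13% with 2 kb, 2.29% with no window and 8.25% to 9.23% with 1 replicate left out. The ratio of the tRNA share to theirs ran between 3.52 (2 kb) and 12.0 (no window), from 5.18. For the 11 named tRNA genes with a region, 90 of 99 values were kept and 9 lost, 7 of them with a window of 500 bp or none and 2 with reciprocal overlap (n-TDgtc8 and n-TAagc9). The cause of these moves was not tested, beyond fewer peaks, bases or genes being counted. Alternatives without cysteine and without large clusters were chosen after seeing the data.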
